A study of Mus musculus with 6 samples.

Results

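Hyaluronidases and the enzymes that build and sulfate chondroitin sulfate are represented here by 9 genes, read in the renal cortex of mice fed a steatohepatitis diet with or without tofogliflozin. The genes are the hyaluronidases Hyal1, Hyal2 and Hyal3, the sulfotransferases Chst11, Chst12 and Chst15, the chain-building enzymes Chsy1 and Csgalnact1, and the epimerase Dse. They were taken by symbol from the 24346 genes measured in each library, and 8 of the 9 were among the 12248 genes with at least 1 FPKM (fragments per length of transcript and per depth of the library) in at least 3 of the 6 libraries. The genes were chosen by their place in these 2 pathways with the FPKM values of the same comparison in view, in which Hyal1 and Chst11 already stood out. Their differences between the groups are therefore descriptions, and the p-values beside them, which come from a fit across all tested genes, support nothing about how the genes were picked.

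RNA-seq was done on renal cortex of C57BL/6 mice, 3 of which received tofogliflozin in the food for 8 weeks and 3 of which received the same food without it. Tofogliflozin inhibits SGLT2, the sodium-glucose cotransporter of the early proximal tubule. The food of both groups was the HF/HC/HS/BA diet, which is rich in fat, cholesterol and bile salt and is used to induce steatohepatitis, so the mice that served as controls carried the disease model too. Animals on standard chow are not part of the comparison, and sex and age are not given in the sources. The design text gives n = 3 kidneys per group, read here as separate mice, and p-values measure the spread between these samples.

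Hyaluronan is a long unsulfated polysaccharide of the extracellular matrix, made at the plasma membrane and broken down by hyaluronidases at the cell surface and in lysosomes; in the healthy kidney it is abundant in the papilla and sparse in the cortex. Chondroitin sulfate is a related chain that is built on a core protein in the Golgi, where polymerases extend it, sulfotransferases decorate it and an epimerase turns parts of it into dermatan sulfate. Both are taken apart in lysosomes by a partly shared set of enzymes, and hyaluronidases can also cut chondroitin.

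The 3 hyaluronidase genes lie in 1 cluster on chromosome 9, all on the plus strand, and share that cluster with Naa80, an actin N-terminal acetyltransferase gene that the files list as Nat6. In the GRCm38 annotation (mm10, the build of the files) Hyal2 spans chr9:107567945-107572779, Hyal1 chr9:107576927-107581710, Naa80 chr9:107578887-107584050 and Hyal3 chr9:107580818-107587359. The 4 genes together cover 19.4 kb, and 4147 bp separate Hyal2 from Hyal1. Hyal1, Naa80 and Hyal3 overlap. Hyal1 and Naa80 have 1920 exon bases in common, which is 50.8% of the exon bases of Hyal1 and 60.9% of those of Naa80. Hyal1 and Hyal3 have 159 in common, or 4.21% of Hyal1 and 8.16% of Hyal3. The chondroitin genes lie apart from the cluster and from one another. Chst11 lies at chr10:82985498-83195900 (plus strand) and Dse at chr10:34151393-34207715 (minus strand).

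Promoter windows from RefSeq (GRCm38.p6), running from 250 bases before an annotated start to 50 bases after it, were at hand for 8 of the 9 genes and for Naa80. These starts are not always the gene starts given above, and the windows of Hyal2 and Naa80 lie downstream of those. Those of the cluster genes Hyal1, Hyal2 and Naa80 and of Chst11 are printed below because the differences between the groups are centred on Hyal1, its neighbour and Chst11. Each is given 5′ to 3′ on the plus strand. Capitals mark matches, on either strand, to 5 motifs: the GC box GGGCGG, the CCAAT box CCAAT, the E-box CACGTG, the nuclear receptor element AGGTCA and its direct repeat with a spacer of 1 base (DR1), which contains AGGTCA by construction. The windows are chr9:107576700-107576999 for Hyal1, chr9:107580419-107580718 for Naa80, chr9:107568913-107569212 for Hyal2 and chr10:82985247-82985546 for Chst11.
Hyal1: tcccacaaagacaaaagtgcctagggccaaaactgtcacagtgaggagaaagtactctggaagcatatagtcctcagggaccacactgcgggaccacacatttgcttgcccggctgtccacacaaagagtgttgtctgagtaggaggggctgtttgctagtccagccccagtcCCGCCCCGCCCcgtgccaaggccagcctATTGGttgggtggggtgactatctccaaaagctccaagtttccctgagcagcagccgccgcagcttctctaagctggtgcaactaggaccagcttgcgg
Naa80: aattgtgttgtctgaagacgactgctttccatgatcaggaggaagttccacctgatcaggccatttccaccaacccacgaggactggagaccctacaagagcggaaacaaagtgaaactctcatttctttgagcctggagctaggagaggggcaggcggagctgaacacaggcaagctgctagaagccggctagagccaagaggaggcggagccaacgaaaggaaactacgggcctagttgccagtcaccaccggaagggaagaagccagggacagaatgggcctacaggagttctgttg
Hyal2: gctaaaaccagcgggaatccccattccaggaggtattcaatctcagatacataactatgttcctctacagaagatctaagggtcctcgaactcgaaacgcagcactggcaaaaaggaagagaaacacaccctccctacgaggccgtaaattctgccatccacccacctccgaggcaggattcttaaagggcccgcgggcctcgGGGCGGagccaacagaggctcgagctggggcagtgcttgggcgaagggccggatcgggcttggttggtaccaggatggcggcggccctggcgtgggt
Chst11: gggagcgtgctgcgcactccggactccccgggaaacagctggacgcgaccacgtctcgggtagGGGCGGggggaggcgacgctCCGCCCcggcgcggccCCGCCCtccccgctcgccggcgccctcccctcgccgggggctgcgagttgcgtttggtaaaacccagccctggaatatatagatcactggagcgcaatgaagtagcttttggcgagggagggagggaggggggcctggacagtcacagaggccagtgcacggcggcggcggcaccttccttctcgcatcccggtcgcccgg

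The Hyal1 window holds 2 GC boxes, at bases 174 and 179 counted from its 5′ end, which share 1 base, and 1 CCAAT box at base 202, all 3 read on the opposite strand. Hyal2 has 1 GC box, at base 204, and Chst11 has 3, at bases 64, 84 and 100. The Naa80 window, which lies inside the Hyal1 gene, holds none of the 5 motifs. Among all 32851 promoter windows of the same length, 35.7% hold a GC box and 37.4% a CCAAT box. No window of the 8 genes holds AGGTCA, which 16.3% of all windows do, or its direct repeat, which 0.0396% do. Only Chsy1 of the 8 holds the E-box, at base 133 of its window, against 7.15% of all windows. The G and C content of the printed windows is 71% for Chst11, 58.3% for Hyal2, 57% for Hyal1 and 54.3% for Naa80. These matches describe letters, not binding.

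In the comparison of tofogliflozin with the diet alone, which asks how the drug alters gene expression in the cortex of these mice, Hyal1 was higher and Chst11 lower past the threshold, and the other 6 tested genes did not pass. Across all 12248 genes 0.253% passed at a Benjamini-Hochberg adjusted p under 0.05 from limma, 0.196% higher and 0.0572% lower with the drug. With Hyal1 and Chst11 known beforehand, nothing is read from the count of 1 higher and 1 lower. At an unadjusted p under 0.05 the genes count 1 higher and 2 lower, where 6.7% of all tested genes were higher and 6.39% lower. Of the 8 genes, 3 had a log2 change above 0 and 5 below it. Their median was -0.02, against -0.0008 over all tested genes.

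**Figure D1:**
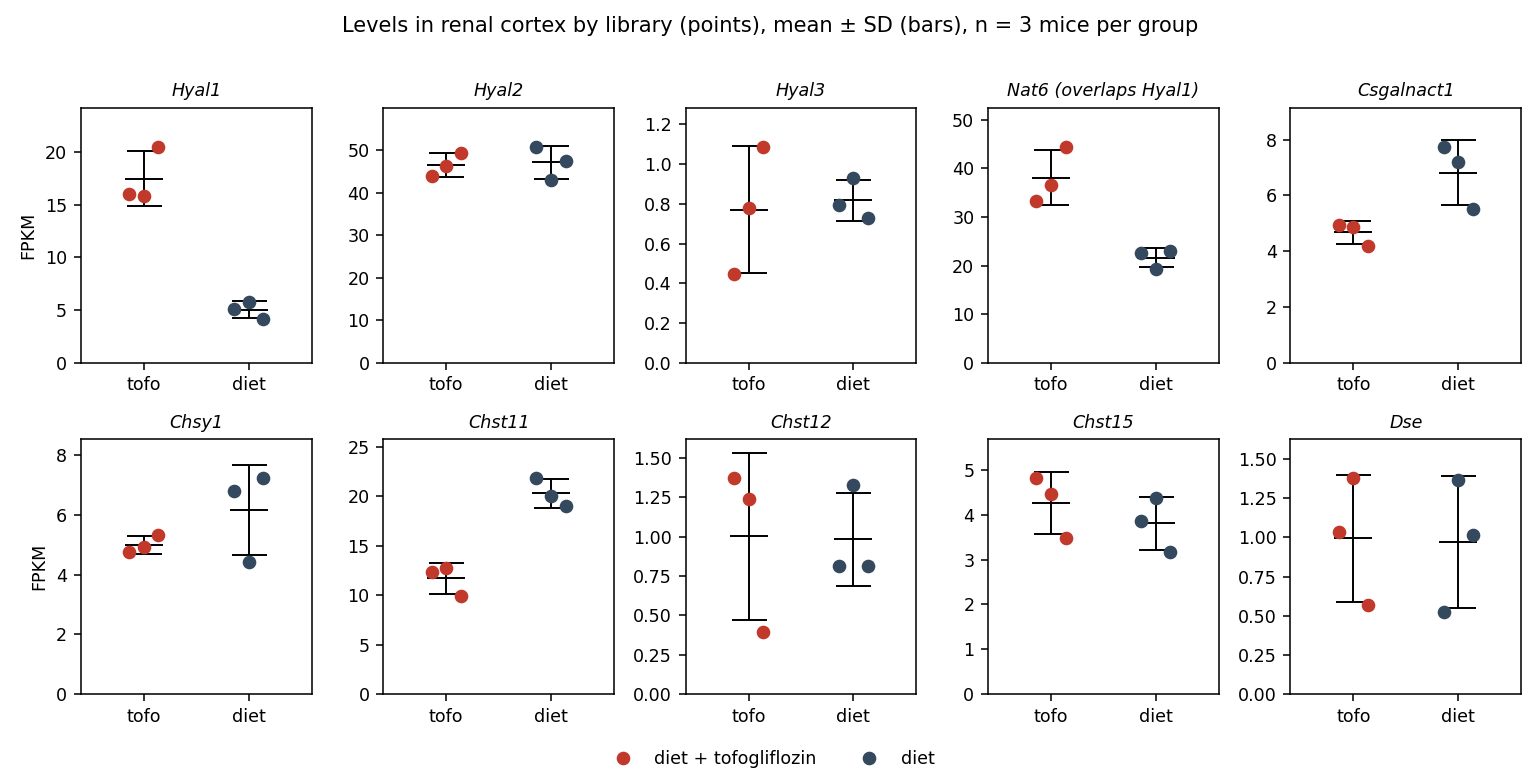
FPKM of the 9 genes and of Nat6, which overlaps Hyal1, in every library (vertical axis, 1 panel per gene with its own linear scale from 0), with tofogliflozin (tofo) left and diet right; points are libraries and bars the mean and SD (n = 3 each). The tofogliflozin points of Hyal1 lie at 15.8 to 20.5 FPKM, above all diet points, those of Chst11 at 9.92 to 12.8 FPKM, below all diet points, and those of Csgalnact1 are also all below the diet points, while the groups of the other 6 enzymes overlap.

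Among the hyaluronidases, Hyal1, the lysosomal enzyme that degrades hyaluronan to short fragments, rose and the others did not differ beyond their spread. It was at 16.03, 15.8 and 20.5 FPKM in the tofogliflozin libraries and at 5.11, 5.80 and 4.20 FPKM in the diet libraries. Every tofogliflozin library was above every diet library, and tofogliflozin replicate 3 was the highest of all. The means were 17.4 ± 2.62 FPKM with tofogliflozin and 5.04 ± 0.803 FPKM on the diet (SD, n = 3 each), a ratio of 3.46. On the log2(FPKM + 1) scale the change was 1.61 ± 0.13 (SE; 95% interval 1.30 to 1.92; limma adjusted p = 0.00769), the third smallest p of all tested genes. About 100 to 530 fragments per library stand behind these values. Leaving out any 1 of the 6 libraries gave a log2 change between 1.496 and 1.70 and a limma adjusted p between 0.0107 and 0.0499, so the call held each time. It ended when no filter on low values was set (limma adjusted p = 0.0663).

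Hyal2, the cell-surface hyaluronidase that makes the first cuts in long hyaluronan, was the most highly expressed of the 9 genes. It stood at 43.8, 46.2 and 49.4 FPKM with tofogliflozin and at 50.7, 43.1 and 47.4 FPKM on the diet. The groups overlapped, with the highest and the lowest value both among the diet libraries. The means were 46.5 ± 2.82 and 47.1 ± 3.86 FPKM, tofogliflozin and diet (SD, n = 3 each). The interval of the log2 change ran from -0.21 to 0.18 (limma adjusted p = 0.951), and about 970 to 1300 fragments per library support it. Hyal3, the least studied of the 3 enzymes, was close to the limit of detection at 0.445, 0.781 and 1.09 FPKM with tofogliflozin and 0.792, 0.933 and 0.727 FPKM on the diet. Its groups overlapped, it rests on about 8 to 17 fragments per library, and it was not tested because only 1 library reached 1 FPKM. In a fit without the filter its log2 change had an interval of -0.39 to 0.28, so a difference within these bounds cannot be told from none.

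Hyal1 made up a larger part of the hyaluronidase RNA with the drug. It accounted for 26.6%, 25.2% and 28.8% of the summed FPKM of the 3 genes in the tofogliflozin libraries, against 9.02%, 11.6% and 8.02% in the diet libraries. The sum itself was 60.3, 62.8 and 71.0 FPKM with tofogliflozin and 56.6, 49.8 and 52.4 FPKM on the diet. All tofogliflozin sums lay above all diet sums, while Hyal2 was the largest contributor in every library. FPKM is per length of transcript, which lets levels of different genes be set side by side. Here the share of Hyal1 is uncertain, because how fragments it shares with overlapping genes were divided is not known.

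Naa80 (Nat6 in the files), which overlaps Hyal1, was at 33.3, 36.6 and 44.4 FPKM with tofogliflozin and at 22.6, 19.3 and 23.0 FPKM on the diet. All tofogliflozin libraries were above all diet libraries, as for Hyal1, and tofogliflozin replicate 3 was again the highest. The means were 38.1 ± 5.72 and 21.7 ± 2.04 FPKM, tofogliflozin and diet (SD, n = 3 each), and the log2 change of 0.78 (95% interval 0.51 to 1.05) did not pass at a limma adjusted p = 0.0532. RefSeq gives Nat6 as an older symbol of both Hyal1 and Naa80. The files hold separate Hyal1 and Nat6 rows with different values. Of the 50-base words in the transcripts of Hyal1, 49.7% also occur in another gene, and of those of Naa80, 58.2%. The sources do not say how the authors' counting divided such fragments. All these genes lie on the same strand, so use of the strand would not separate them. The values of Hyal1, Naa80 and, by its 6.89% of shared words, Hyal3 are therefore uncertain, and how much of the difference in Hyal1 is its own was not tested. Hyal2 shares no 50-base word with another gene (0%).

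**Figure D2:**
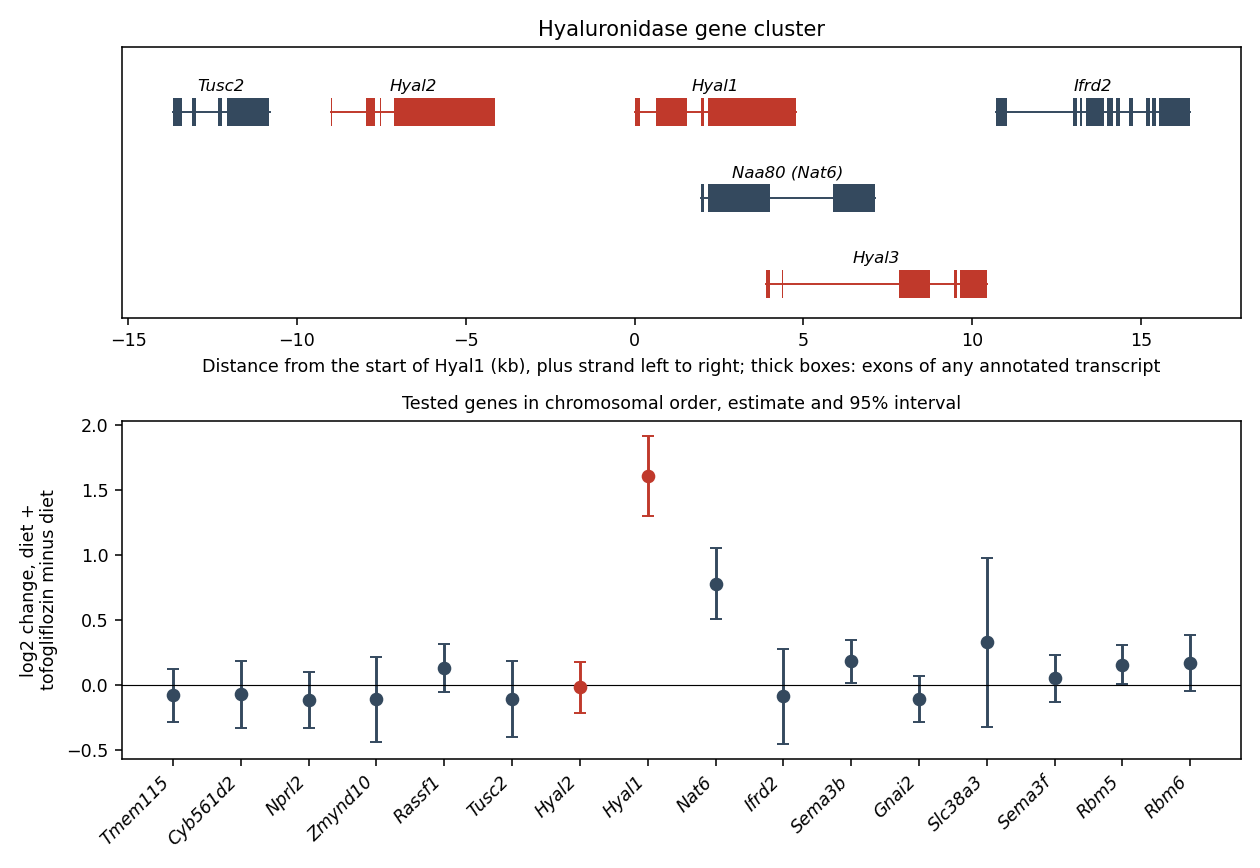
Top, exons (boxes) of the hyaluronidase cluster genes and their nearest neighbours by distance in kb from the start of Hyal1, where boxes of Hyal1 and Naa80 lie over the same stretch. Bottom, log2 change (tofogliflozin minus diet, log2(FPKM + 1) scale) with its 95% interval for the tested genes of the region in chromosomal order: Hyal1 stands at 1.61, Nat6 (Naa80) at 0.78 and Hyal2 at -0.02.

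Beyond Naa80 the genes around the cluster differed less. Of 14 tested neighbours, Naa80 included, 7 had a change above 0 and 7 below it (median -0.01), and none passed (limma). In 5 of the 14 every tofogliflozin library was above every diet library, and in 0 every one was below. The shares of all tested genes are 9.63% and 8.86%, and the difference from them was not tested. At an unadjusted p under 0.05 there were 3, all higher, where 6.7% of all tested genes are higher and 6.39% lower past that level. Besides Naa80 these were Sema3b, a semaphorin gene, and Rbm5, an RNA-binding splicing regulator. Sema3b averaged 16.9 ± 0.582 FPKM with tofogliflozin and 14.8 ± 0.711 FPKM on the diet (SD, n = 3 each; limma adjusted p = 0.335). Rbm5 averaged 25.2 ± 0.341 FPKM with tofogliflozin and 22.5 ± 0.739 FPKM on the diet (SD, n = 3 each; limma adjusted p = 0.359).

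On the chondroitin side, Chst11 was the most highly expressed of the 6 genes in either group, and it fell. Chst11 encodes a sulfotransferase that adds sulfate to the N-acetylgalactosamine of chondroitin. It was at 12.4, 12.8 and 9.92 FPKM in the tofogliflozin libraries and at 21.8, 19.99 and 19.0 FPKM in the diet libraries. All tofogliflozin libraries lay below all diet libraries, with tofogliflozin replicate 3 the lowest. The means were 11.7 ± 1.55 and 20.3 ± 1.43 FPKM, tofogliflozin and diet (SD, n = 3 each), a ratio of 0.577. On the log2 scale it fell by 0.75 ± 0.11 (SE), and its interval of -0.99 to -0.51 left out 0 (limma adjusted p = 0.0435). With any 1 of the 6 libraries left out the change stayed negative but the adjusted p lay between 0.0540 and 0.160, so the call ended each time. Over all 14 alternative settings it passed in 3. Its transcripts share no 50-base word with another gene (0%), and about 470 to 910 fragments per library support it.

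The other sulfotransferases did not pass. Chst12, which catalyses the same reaction, was at 1.37, 1.24 and 0.394 FPKM with tofogliflozin and at 0.814, 1.33 and 0.815 FPKM on the diet. The groups overlapped, and tofogliflozin replicate 3 was the lowest library, as for Chst11. With about 7.8 to 31 fragments per library, its log2 change had a wide interval, -0.54 to 0.51 (limma adjusted p = 0.982). Chst15, which adds a further sulfate to N-acetylgalactosamine that is already sulfated, was at 4.82, 4.47 and 3.48 FPKM with tofogliflozin and at 3.87, 4.37 and 3.18 FPKM on the diet. These libraries overlapped too, and the interval was -0.19 to 0.45 (limma adjusted p = 0.747). A gene on the opposite strand, Gm10584, covers 17.9% of the exon bases of Chst15. Without strand in the counting, reads of the 2 genes could not be told apart.

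Chst11 made up 66.7%, 69.1% and 71.9% of the summed FPKM of Chst11, Chst12 and Chst15 in the tofogliflozin libraries, against 82.3%, 77.8% and 82.6% in the diet libraries. The groups did not overlap in this share. Chst11 remained the largest of the 3 in every library.

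Csgalnact1, which places the first N-acetylgalactosamine and so commits a chain to chondroitin, was lower in all tofogliflozin libraries but did not pass. It was at 4.94, 4.88 and 4.20 FPKM with tofogliflozin and at 7.74, 7.20 and 5.51 FPKM on the diet. The means were 4.67 ± 0.412 and 6.81 ± 1.16 FPKM, tofogliflozin and diet (SD, n = 3 each), and the difference on the log2 scale was -0.45, with bounds of -0.75 and -0.16 (limma adjusted p = 0.201). Groups apart in either direction were seen for 18.5% of all tested genes, made up of 9.63% all higher and 8.86% all lower with tofogliflozin. The 8 genes count 1 all higher (Hyal1) and 2 all lower (Chst11 and Csgalnact1).

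Chsy1, a chondroitin synthase that extends the chain, was at 4.74, 4.92 and 5.32 FPKM with tofogliflozin and at 6.81, 4.44 and 7.23 FPKM on the diet. Diet replicate 2 was the lowest of all 6 libraries, so the groups overlapped, and the change had an interval of -0.60 to 0.12 (limma adjusted p = 0.569). Dse, the epimerase that makes dermatan sulfate from chondroitin sulfate, was at 1.04, 1.38 and 0.569 FPKM with tofogliflozin and at 0.524, 1.36 and 1.02 FPKM on the diet. Both groups covered nearly the same range, and the interval was -0.48 to 0.52 (limma adjusted p = 0.977). With about 17 to 46 fragments per library and this spread, a difference in Dse within that interval cannot be told from none. How much depth and the spread between mice each contribute was not tested.

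Ordered by level, the genes fell into layers whose neighbours often did not differ beyond their spread. With tofogliflozin, Hyal2 came first, then Hyal1, then Chst11. Chsy1, Csgalnact1 and Chst15 followed without a gap larger than their spread, and Chst12, Dse and Hyal3 were lowest, again not apart from one another. On the diet, Hyal2 was followed by Chst11, and Hyal1 sat among Csgalnact1, Chsy1 and Chst15. Hyal1 was thus the gene that changed layer between the groups. The FPKM of the 9 genes added up to 89.5, 92.4 and 94.8 with tofogliflozin and to 98.2, 88.5 and 89.1 on the diet, so the sums of the groups overlapped.

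**Figure D3:**
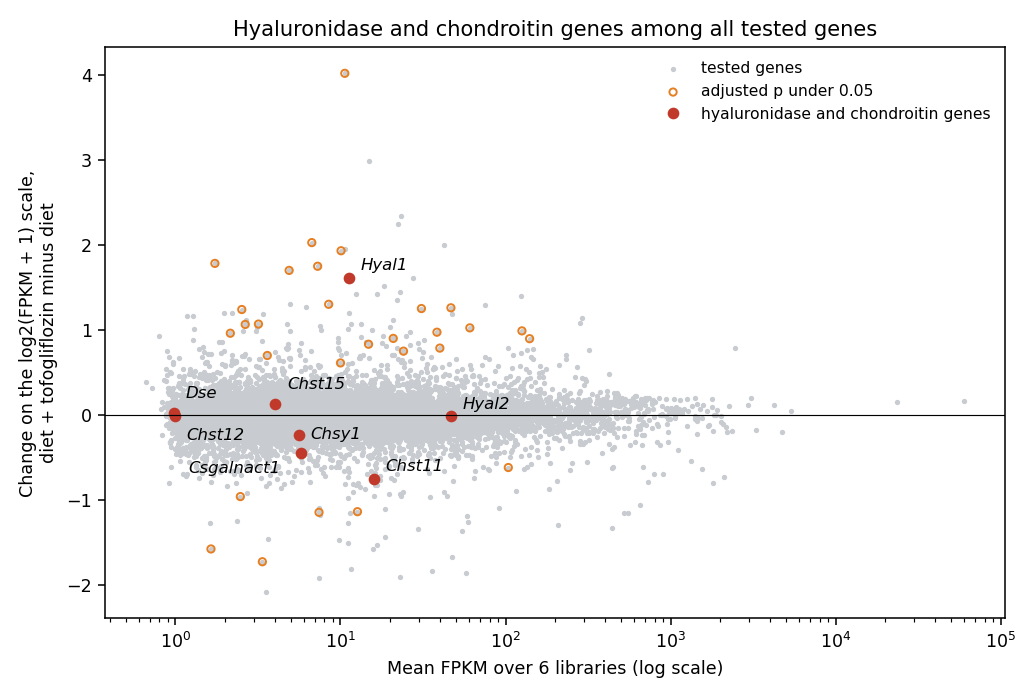
Mean FPKM over the 6 libraries (horizontal log axis) against the log2 change, tofogliflozin minus diet (log2(FPKM + 1) scale, vertical axis), for the 12248 tested genes (grey; orange rings mark the 31 past the threshold), with the 8 tested hyaluronidase and chondroitin genes in red. Hyal1 lies at 1.61 and Chst11 at -0.75, and the other 6 lie between -0.45 and 0.13.

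Some genes followed the patterns of Hyal1 and Chst11 closely over the 6 libraries. Among the 12247 other tested genes, the Pearson correlation with Hyal1 was highest for Hoxd8 (0.998), Gja1 (0.995), Itih1 (0.992), Cab39l (0.987) and Mboat2 (0.986), and 90 genes had one above 0.95. Itih1 encodes a heavy chain that is transferred onto hyaluronan from inter-alpha-trypsin inhibitor. It averaged 3.93 ± 0.419 FPKM with tofogliflozin and 1.37 ± 0.384 FPKM on the diet (SD, n = 3 each), and rose by 1.07 on the log2 scale (limma adjusted p = 0.0406), a call that 6 of the 13 other settings tried kept. Itih5, read among genes of hyaluronan breakdown and binding, averaged 5.16 ± 1.22 FPKM with tofogliflozin and 4.085 ± 0.308 FPKM on the diet (SD, n = 3 each; limma adjusted p = 0.504). The groups of Itih5 overlapped. The closest to Chst11 were Fadd (0.990), Atrnl1 (0.990), Atp11a (0.988), Pole4 (0.988) and Hyou1 (0.986), with 83 genes above 0.95. With 6 libraries in 2 groups, genes that separate the groups widely can score highly here. The genes named are also the top of a search through 12247, so these values are a description.

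Around the 9 genes, other genes of the same chemistry were read from 9 lists with 131 genes in the files, of which 78 were tested. None of the 78 passed over all genes (limma; 12 at an unadjusted p under 0.05, 3 higher and 9 lower). The 12 are 15.4% of the 78, against 13.1% of all tested genes. Of the 78, 3 (3.85%) had all tofogliflozin libraries above all diet libraries, against 9.63% of all tested genes, and 13 (16.7%) had them all below, against 8.86%. The median log2 change was -0.06. These shares are a description and were not tested.

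Hyaluronan synthesis, which needs the synthases Has1, Has2 and Has3 and the enzymes that make their sugar nucleotides, gave no gene past either level among its 6 tested members, 3 above 0 and 3 below (limma). The tested members were all sugar nucleotide enzymes, and none of the synthases reached the filter. Has2 is listed at 0 in every library, Has1 was at most 0.0551 FPKM, and Has3 ran from 0.264 to 0.675 FPKM. A change in the synthases was therefore not tested. Gnpnat1, an acetyltransferase on the way to UDP-N-acetylglucosamine, averaged 16.8 ± 1.13 FPKM with tofogliflozin and 15.2 ± 0.999 FPKM on the diet (SD, n = 3 each; limma adjusted p = 0.555). Of 7 tested genes of hyaluronan breakdown and binding, 1 was past the unadjusted level. That gene, Gusb, encodes beta-glucuronidase, the lysosomal enzyme that removes glucuronic acid from the ends of hyaluronan and chondroitin fragments. It averaged 12.4 ± 1.005 FPKM with tofogliflozin and 20.6 ± 9.03 FPKM on the diet (SD, n = 3 each; limma adjusted p = 0.330). Diet replicate 1 alone stood at 31.0 FPKM, and without it the log2 change was -0.30 in place of -0.62.

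In the sulfation list the smallest p was that of Papss2, and it did not pass. Papss2, which makes the sulfate donor used by all these sulfotransferases, was at 125, 117 and 149 FPKM with tofogliflozin and at 85.3, 88.4 and 89.7 FPKM on the diet. Every tofogliflozin library was above every diet library, and on the log2 scale the difference was 0.56, with bounds of 0.34 and 0.78 (limma adjusted p = 0.0682). Chst7, another chondroitin sulfotransferase, averaged 14.2 ± 1.93 FPKM with tofogliflozin and 19.8 ± 2.48 FPKM on the diet (SD, n = 3 each; limma adjusted p = 0.182), a log2 change of -0.46. Slc26a1, a sulfate transporter of the tubule, averaged 61.4 ± 4.36 FPKM with tofogliflozin and 73.5 ± 4.48 FPKM on the diet (SD, n = 3 each; limma adjusted p = 0.234). Of the 9 tested genes of this list 3 had a change above 0 and 6 below, with a median of -0.07.

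Enzymes that take chondroitin and dermatan sulfate apart had 5 of 6 changes below 0, with a median of -0.13, and none passed (limma; 2 at an unadjusted p under 0.05). Galns, a lysosomal sulfatase of chondroitin and keratan sulfate, averaged 42.7 ± 4.39 FPKM with tofogliflozin and 60.9 ± 10.3 FPKM on the diet (SD, n = 3 each; limma adjusted p = 0.179). Arsb, the lysosomal sulfatase of N-acetylgalactosamine sulfate, averaged 81.7 ± 6.57 FPKM with tofogliflozin and 103.5 ± 14.4 FPKM on the diet (SD, n = 3 each; limma adjusted p = 0.253). Both were lower in every tofogliflozin library than in every diet library. Chain synthesis beyond the 9 genes gave 1 of 4 above 0 and none past either level (limma), among them Csgalnact2, the relative of Csgalnact1, at 4.84 ± 0.198 FPKM with tofogliflozin and 4.40 ± 0.374 FPKM on the diet (SD, n = 3 each; limma adjusted p = 0.652).

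The linkage region that joins every such chain to its protein is started by xylosyltransferases. Xylt1 averaged 4.41 ± 0.510 FPKM with tofogliflozin and 6.29 ± 0.931 FPKM on the diet (SD, n = 3 each; limma adjusted p = 0.208), and was the 1 of 8 tested linkage genes past the unadjusted level. Its groups did not overlap.

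The heparan sulfate enzymes, which work on the sister chain built from the same linkage, had 16 of 18 changes below 0 (median -0.12), and none passed (limma; 2 at an unadjusted p under 0.05). Without tofogliflozin replicate 1 the count was 11 of 18 and without diet replicate 1 it was 13. Hs6st1, a heparan sulfotransferase, averaged 52.0 ± 2.85 FPKM with tofogliflozin and 73.9 ± 15.5 FPKM on the diet (SD, n = 3 each; limma adjusted p = 0.225). It passed in 1 of 14 alternative settings, without diet replicate 2 (limma adjusted p = 0.0286). With a library left out the limma adjusted p of Hs6st1 reached 0.521. Among 17 tested core proteins 7 were above 0 and 10 below. Gpc3, a glypican, averaged 7.76 ± 1.98 FPKM with tofogliflozin and 4.50 ± 0.508 FPKM on the diet (SD, n = 3 each; limma adjusted p = 0.181). Sdc1, a syndecan that can carry both kinds of chain, averaged 2.92 ± 0.311 FPKM with tofogliflozin and 3.67 ± 0.156 FPKM on the diet (SD, n = 3 each; limma adjusted p = 0.339). Of 3 tested sulfotransferases for other carbohydrates, Chst1, which acts on keratan sulfate, averaged 2.80 ± 0.217 FPKM with tofogliflozin and 1.55 ± 0.414 FPKM on the diet (SD, n = 3 each; limma adjusted p = 0.155).

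**Figure D4:**
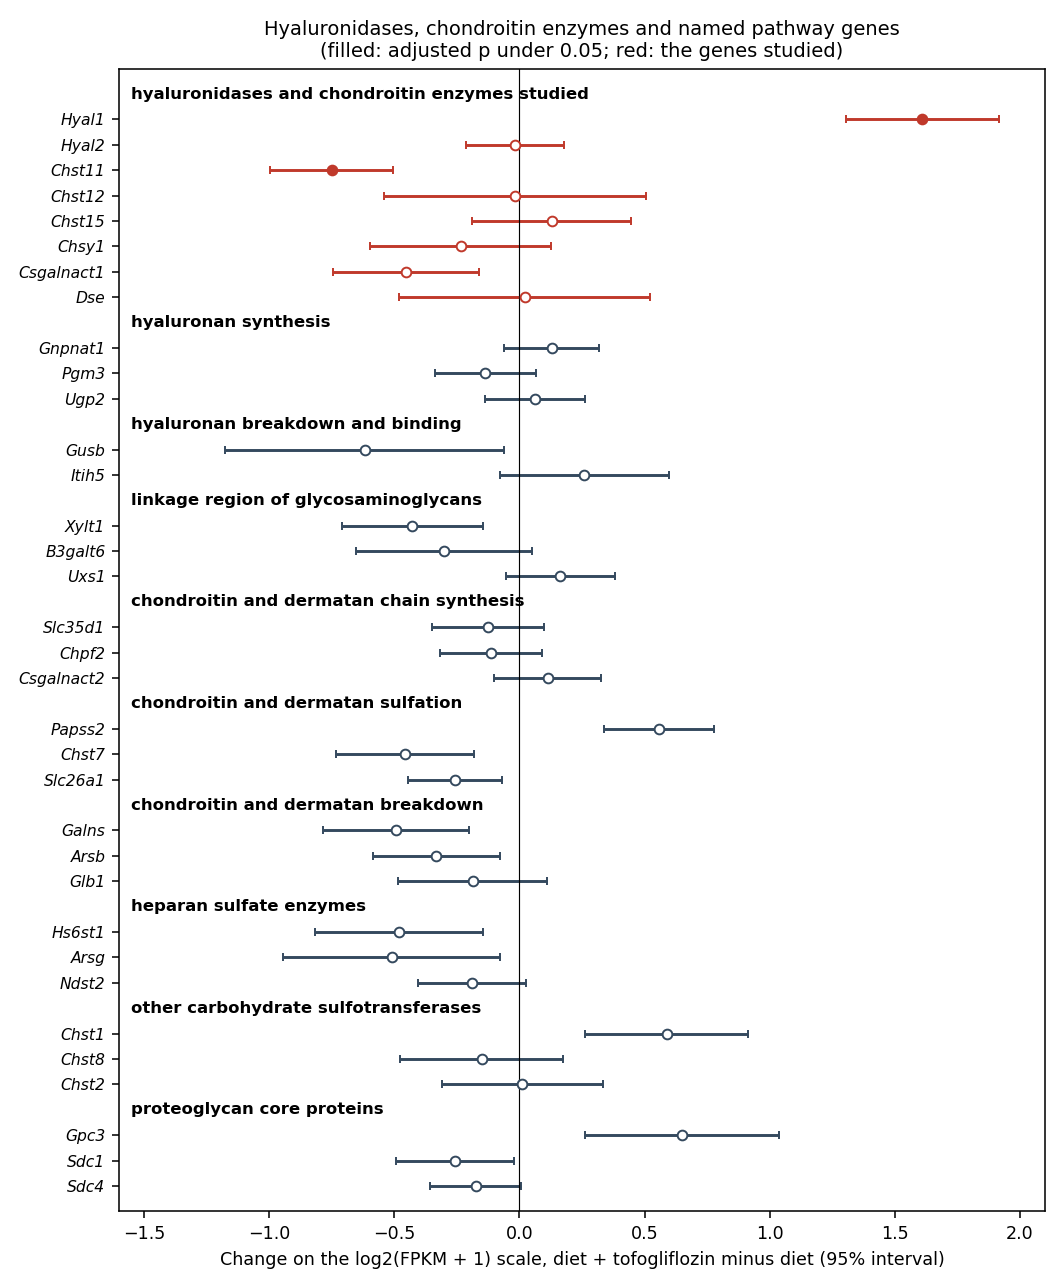
Log2 change, tofogliflozin minus diet on the log2(FPKM + 1) scale (horizontal axis), with its 95% interval, for the 8 tested genes (red) and up to 3 genes of smallest p from each pathway list other than the cluster's neighbours (blue); filled points passed the threshold. Hyal1 is the farthest point on the right at 1.61 and Chst11 the farthest on the left at -0.75, and no blue point is filled.

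The tissue and the depth bear on how these values read. In bulk cortex, fewer cells of a type and less RNA per cell cannot be told apart. Proximal tubule markers summed to 3619 to 3894 FPKM with tofogliflozin and 3869 to 4348 FPKM on the diet, led by Slc34a1, so the defining genes of the cortex were present. Summed collecting duct markers (7 genes) were 296 to 350 FPKM with tofogliflozin and 224 to 285 FPKM on the diet, so the groups did not overlap. Summed podocyte markers (6 genes) did not overlap either, at 109 to 113.6 FPKM with tofogliflozin and 101.3 to 106.6 FPKM on the diet. Summed macrophage markers (12 genes) were 111 to 164 FPKM with tofogliflozin and 137 to 312 FPKM on the diet, and all 9 tested had a change below 0. Fibroblast and mural markers, which stand for the main matrix-producing cells, were 38.1 to 59.9 FPKM with tofogliflozin and 45.8 to 45.9 FPKM on the diet. The part of these cells in the Hyal1 and Chst11 differences was not tested. The depth, read from the spacing of the lowest values, was about 7570000 fragments in the shallowest library (diet replicate 1) to 9790000 in the deepest (tofogliflozin replicate 1).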

How the data were processed

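RNA-seq covered cortex of 3 mice given tofogliflozin in the diet and 3 given the diet alone. Per the labels' protocols, column-purified RNA was made into stranded mRNA libraries. Each deposited table holds FPKM values, made by the authors, and no counts. The submitters' processing notes name Cuffdiff 2.2.1, TopHat2 2.1.1, SAMtools 0.1.18 and Bowtie2 2.2.8, and the build mm10. The sources used here do not give the settings, the annotation, the use of strand or any scaling of the libraries.

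The 12248 genes that reached 1 FPKM in 3 or more libraries were compared as log2(FPKM + 1), which shrinks the fold changes of low genes, with limma 3.58.1 in R 4.3.3 (mean-variance trend, two-sided, Benjamini-Hochberg adjustment over all tested genes, threshold 0.05). Intervals are limma's 95% intervals. The 9 genes, lists and named genes were chosen with earlier results of these data known. From each pathway list up to 3 genes of smallest p are named, and up to 5 genes most like Hyal1 and Chst11; 1 gene that the rule selects is not reported here, and counts include it. Positions and overlaps are from GENCODE M21, promoters from RefSeq GRCm38.p6. Depth was estimated from the low values, of which 84.3% of 8243 lay within 1% of a whole multiple of 1 fragment. The totals rest on 224 single-transcript genes and are approximate, so no count test was run. The fit was tested on simulated data with independent noise in each gene and library. Such data cannot show how differences shared across a whole library affect the calls. Alternatives were another pseudocount, 2 other filters, 2 scalings, a replicate block, no trend, array weights and each library left out. Plots used matplotlib 3.10.9 (Python 3.11.15).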

Additional observations from a re-analysis of the deposited data

How the results depend on the processing

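Over 48 named genes and 14 alternatives, 619 of 659 values kept their direction and side of the threshold, 19 lost and 8 gained the call, and 13 turned direction. The 31 genes called in all became 1 with no filter on low values, 20 with a filter at 5 FPKM, 47 with upper-quartile scaling, 123 with array weights and 26 with the replicate block. With 1 library left out they were 9, 66 and 57 (without diet replicate 1, 2 and 3) and 4, 18 and 2 (without tofogliflozin replicate 1, 2 and 3), a range of 2 to 66. Of the 2 genes called among the 9, 1 was called with a pseudocount of 0.1, quantile normalization, the replicate block, no mean-variance trend and with any library left out (1 to 1), in each case Hyal1. With no filter the number was 0, with a limma adjusted p = 0.0663 for Hyal1 and 0.105 for Chst11. Chst11 had a limma adjusted p between 0.0516 and 0.0652 under the first 4 of these settings, and the cause was not tested. Of the other pathway genes and the cluster's neighbours, 0 were called in the fit reported, 1 with upper-quartile scaling (Nat6, limma adjusted p = 0.0449), 2 with array weights (Nat6 at 0.0364 and Papss2 at 0.0404) and 0 to 1 with a library left out (Hs6st1 without diet replicate 2). Directions turned for genes near 0. Hyal2 was at 0.005 with quantile normalization and -0.079 to 0.037 with a library left out. Chst12 was at 0.055 with array weights and -0.16 to 0.23 with a library left out. With a library left out, Dse ran from -0.15 to 0.18, Ugp2 from -0.0185 to 0.131 and Chst2 from -0.077 to 0.0885. Same-numbered libraries of the 2 groups had correlated deviations of -0.0549, -0.0623 and 0.0514, so the numbers were not taken to pair the mice. Hyal3, Chst12 and Dse rest on the fewest fragments per library.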
